A study of Mus musculus with 12 samples.

Results

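The genes described here are 38 members of the autophagy machinery, of 32285 features listed for the series. They cover the start of autophagosome formation, the choice of cargo and the fusion of the autophagosome with the lysosome. The members were named by role and not by any measured value, though earlier results of these data were known when they were chosen. The genes of the Atg12 conjugation machinery, which the study's mice were built to disturb, were left out. The list holds 5 genes of the ULK complex, 6 of the class III phosphatidylinositol 3-kinase (PI3 kinase) complexes, 6 that read the lipid product of that kinase or carry lipid and membrane, 4 Atg4 proteases, 5 Atg8-family genes, 6 cargo receptors and 6 fusion genes. Their levels were compared between cell classes, between treatments and between Cre labels in mouse lymph node cells profiled by single-cell RNA sequencing of 3′ ends.

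All mice were C57BL/6 animals of 7 to 10 weeks that carried loxP-flanked Atg12 alleles and had been given tamoxifen 5 times, the Cre-negative ones included. Cre-positive mice also carried a tamoxifen-inducible Cre recombinase (CreER) under the promoter of Cdh5, which is active in endothelial cells. Mice were painted on the abdomen with 4% oxazolone, a contact sensitizer, in acetone and olive oil and were taken at day 3 or day 7, or they received the solvent alone (vehicle). Cells released by enzyme digestion were split on CD45 beads, and each fraction of each combination of label and treatment gave 1 library, so 6 libraries were made from the CD31 (endothelial) fraction and 6 from the CD45 (immune) fraction. No combination was repeated. For label and treatment, p-values rest on the spread between libraries that the additive model of both does not take up. Between classes, they rest on the spread of the class difference between libraries. The number of animals behind a library is not given in the sources used here.

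Autophagy encloses cytoplasm in a double membrane and delivers it to the lysosome. The ULK kinase complex starts the process, the class III PI3 kinase marks the forming membrane with a phosphoinositide, Atg9 vesicles and Atg2 proteins supply lipid, and Atg8-family proteins are coupled to the membrane, where they bind receptors that hold the cargo. The closed autophagosome then fuses with the lysosome through SNARE proteins, Rab7 and tethers. In lymphocytes the pathway is known for supporting long-lived cells, and in endothelium for roles in junctions, secretion and the response to flow.

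Totals ran from 36724887 to 76186801 UMIs per library, and 89054 cells were kept (5698 to 10553 per library), with at most 0.384% of the smaller library's barcodes shared by any pair of libraries. The tested classes were blood endothelial-like cells (19908 cells in the CD31 libraries), the high endothelial venule (HEV)-like cells among them (3175), lymphatic endothelial-like cells (4766), and T cell-like (12098) and B cell-like cells (15722) of the CD45 libraries. Each was named from its markers: the HEV-like cluster had 32980 CPM of Glycam1 against 77.4 in the capillary-like cluster, and the main lymphatic cluster had 807 CPM of Prox1 against 2.98 in HEV-like cells. The T cell-like class leaves out a CD45 cluster of 1369 cells with Ly6c2, Eomes and Nkg7 among its top genes. The B cell-like class includes a cluster of 215 cells led by interferon-stimulated genes such as Ifit3. The CD31 libraries also held 5453 T cell-like and 6016 B cell-like cells, and the CD45 libraries held 8515 fibroblast or reticular-like cells. A globin-rich capillary cluster of 3856 cells was left out of the blood endothelial-like class and added back as an alternative. A cluster of low UMI count made up 20.67% of the day 3 Cre-positive CD31 library and 6.61% of the vehicle Cre-negative one, at most 1.334% in the others, and was left out of every class. By position 15 of the 38 members overlap a gene on the opposite strand and none overlaps one on the same strand. Atg12 itself did not pass between labels in any of the 3 endothelial classes (edgeR adjusted p = 0.9996, 0.9999 and 0.9999 in HEV-like, blood endothelial-like and lymphatic cells). Unadjusted, the edgeR p was 0.280, 0.00402 and 0.0224 in the same order. Atg12 had log2 values of 0.14 (SE 0.12), 0.41 (SE 0.09) and 0.48 (SE 0.17), and within each treatment the Cre-positive library had the higher level. In blood endothelial-like cells it was 52.8, 44.6 and 51.5 CPM in the Cre-negative libraries at vehicle, day 3 and day 7 and 73.6, 59.3 and 63.99 CPM in the Cre-positive ones, in lymphatic cells 57.8, 47.5 and 51.98 against 82.1, 72.8 and 59.2, and in HEV-like cells 44.7, 45.3 and 43.5 against 54.4, 52.3 and 45.1. Counts of 3′ ends need not fall when inner exons are removed, so they do not check the label.

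Levels are given as CPM, the UMIs of a gene per 1000000 UMIs of the class in a library. Where a lowest, median and highest value are given for a comparison between classes, they are CPM after TMM scaling between libraries. Libraries are named in pairs, Cre-negative first. CPM of different genes are not compared, since a 3′ count depends on the transcript's end. Free RNA was measured in barcodes of at most 100 UMIs. Of the 38 members, 5 in HEV-like, 19 in blood endothelial-like, 24 in lymphatic, 9 in T cell-like and 14 in B cell-like cells had a level above the free RNA of the same library in all 6 libraries, and 7, 3, 2, 10 and 6 were below it in all 6. Vamp8 and, outside lymphatic cells, Map1lc3b were below it in each of these classes. The part of free RNA in the differences below was not tested. Over the 25 classes with at least 20 cells in a library, 7 of the 38 members differed by less than 3-fold between their highest and lowest class mean, and 9 differed by more than 10-fold. These counts have no share over all genes beside them. Among the 9 were Wipi1, which reached 104 ± 24.8 CPM (SD over 6 libraries) in fibroblast or reticular-like cells and was 0.861 ± 0.261 CPM in T cell-like cells, and Map1lc3a, which was 299 ± 69.4 CPM in pericyte-like and 7.84 ± 1.47 CPM in T cell-like cells. Calcoco1 was highest in plasmacytoid dendritic cell-like cells at 71.9 ± 8.69 CPM, as was Uvrag at 566 ± 119.8 CPM. The dendritic and macrophage classes were small, with 13 to 203 cells in a library, and their levels are descriptions only. The plot of levels by class shows how each step of the pathway was spread over endothelial, stromal, lymphoid and myeloid classes.

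**Figure D1:**
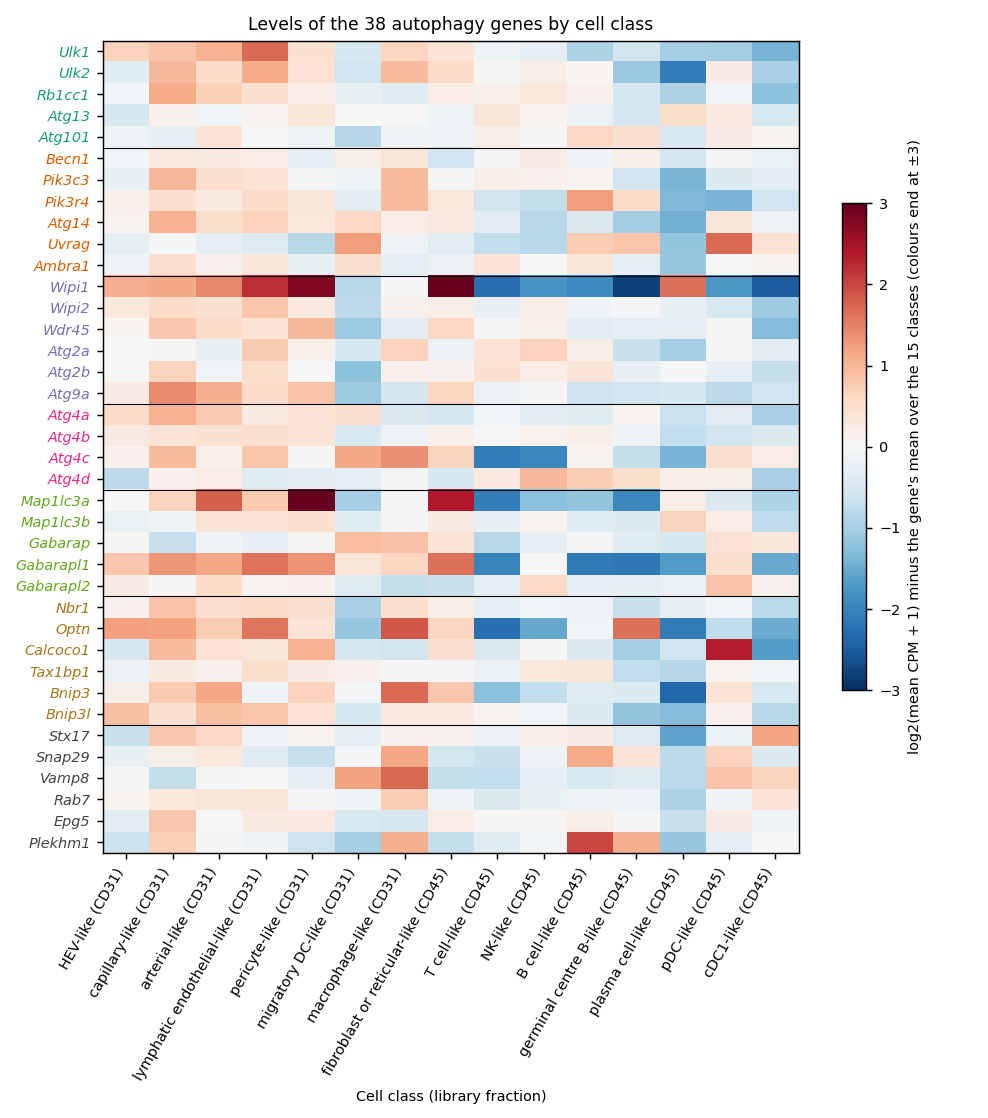
Log2 level of each member (rows, grouped by step of the pathway) in 15 cell classes (columns) relative to the member's own mean over those classes, from the mean CPM of the libraries; colours end at 3 above and below. Wipi1 and Map1lc3a stand highest in the pericyte-like and fibroblast or reticular-like columns, and Optn and Atg4c are among their lowest in T cell-like cells.

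The first comparisons asked where in the node each step of the pathway is expressed more. Counts were summed per class and library, scaled by TMM, and tested with edgeR with the library as a block and Benjamini-Hochberg adjustment over all genes. The members were left out of the genes used to form the classes. All 38 passed the low-count filter in each of these 3 comparisons. HEV-like cells had 9 members higher and 10 lower than the other blood endothelial-like cells, while 60.7% of all 13045 genes tested differed. Lymphatic cells had 13 members higher and 8 lower than blood endothelial-like cells, beside 58.8% of 14044 genes. B cell-like cells had 16 members higher and 8 lower than T cell-like cells, beside 70.9% of 12169 genes. The members' shares, 50.0%, 55.3% and 63.2%, were below these backgrounds, so differences between classes were not more common among them than among genes at large. The median log2 difference of the members was −0.01 for HEV-like cells (all genes 0.00), 0.05 for lymphatic cells (all genes −0.03) and 0.13 for B cell-like cells (all genes 0.00). The split for HEV-like cells depended on the scaling: with library totals alone, which put the median of all genes at −0.30, it was 3 higher and 24 lower, and for lymphatic cells it was 19 and 6. The split for B cell-like cells was 16 and 8 under both. With no filter on low counts the 3 splits were 6 and 11, 8 and 8, and 17 and 7.

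**Figure D2:**
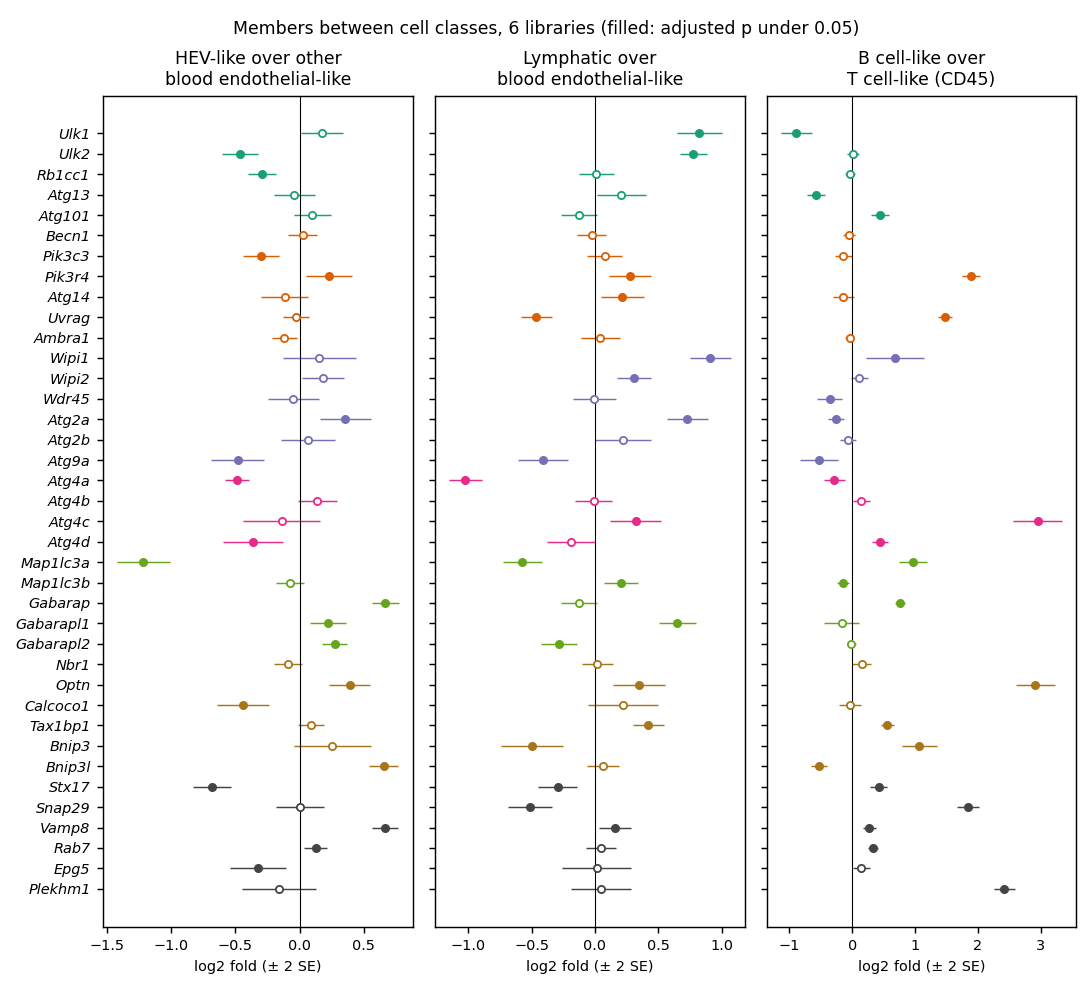
Log2 difference (± 2 SE) of each member, coloured by step, in HEV-like against other blood endothelial-like cells, lymphatic against blood endothelial-like cells and B cell-like against T cell-like cells; 6 libraries with the library as a block, TMM scaling, filled points with an edgeR adjusted p under 0.05. Map1lc3a is the lowest point in the HEV-like panel, Wipi1 and Ulk1 the highest in the lymphatic panel, and Atg4c and Optn the highest in the B cell-like panel.

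In the ULK complex, Ulk1 and Ulk2, the kinases that start autophagy, were both higher in lymphatic than in blood endothelial-like cells. The TMM-scaled level of Ulk1 had a lowest, median and highest value of 27.5, 31.3 and 35.8 CPM in lymphatic cells and 13.1, 19.2 and 20.7 in blood endothelial-like cells, so the ranges did not overlap (log2 0.82, SE 0.09, adjusted p = 9.49e-06). Ulk2 had 86.1, 101 and 109.9 CPM against 49.98, 58.3 and 65.5, again without overlap (log2 0.78, SE 0.06, adjusted p = 2.61e-07). Within blood endothelium Ulk2 was lower in HEV-like cells, 35.8, 41.6 and 44.5 CPM against 47.4, 57.8 and 63.8 (log2 −0.47, SE 0.07, adjusted p = 0.000148). Rb1cc1, the scaffold known as FIP200, was lower in HEV-like cells by a smaller amount (log2 −0.29) and its log2 difference between lymphatic and blood endothelial-like cells was 0.01, which did not pass. In lymphocytes Ulk1 was lower in B cell-like cells, 2.76, 4.43 and 5.84 CPM against 6.66, 8.39 and 10.00 in T cell-like cells (log2 −0.89, SE 0.12, adjusted p = 2.88e-05). Free RNA of the CD45 libraries held 3.85 to 13.1 CPM of Ulk1, a range that covers the T cell-like values and all but the lowest of the B cell-like summary values. Atg13, the regulatory subunit, was also lower in B cell-like cells (log2 −0.58) and Atg101, its partner, higher (log2 0.45).

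Among the class III PI3 kinase genes, Pik3r4 and Uvrag were higher in B cell-like than in T cell-like cells, and Becn1 passed in no comparison. Becn1, the Beclin 1 scaffold, had log2 differences of 0.03, −0.03 and −0.05 in the 3 comparisons in the order above, and its mean was 47.1 ± 4.13 CPM in HEV-like, 57.8 ± 4.95 in lymphatic, 47.6 ± 3.14 in T cell-like and 46.5 ± 3.58 in B cell-like cells. Pik3c3, the catalytic subunit Vps34, was lower in HEV-like cells (log2 −0.30) and did not pass in the others. Pik3r4, the Vps15 subunit, had 30.7, 39.1 and 43.5 scaled CPM in B cell-like and 9.69, 10.1 and 10.9 in T cell-like cells, with no overlap (log2 1.89, SE 0.07, adjusted p = 6.46e-11). Uvrag, the subunit of the complex that acts on endosomes and late steps, had 251, 292 and 335 CPM in B cell-like against 91.01, 106 and 122 in T cell-like cells (log2 1.48, SE 0.06, adjusted p = 3.74e-11). Atg14, the subunit that places the kinase at the forming autophagosome, did not pass there (log2 −0.14). In lymphatic cells Atg14 was higher (log2 0.22) and Uvrag lower (log2 −0.46) than in blood endothelial-like cells. The Uvrag call was kept in 14 of 14 alternatives and the Atg14 call, with an adjusted p of 0.0498, in 5 of 14: it was lost with no filter on low counts, with DESeq2, with more doublets removed, with the globin-rich capillary cluster added and without any 1 library other than the vehicle Cre-negative one.

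Of the genes that read the phosphoinositide or supply lipid, Wipi1 and Atg2a were higher in lymphatic cells. Wipi1, a phosphoinositide-binding propeller protein, had 32.9, 37.4 and 49.8 scaled CPM in lymphatic and 17.2, 21.2 and 24.2 in blood endothelial-like cells (log2 0.91, SE 0.08, adjusted p = 1.93e-06). Atg2a, a lipid transfer protein, had 22.3, 33.1 and 37.4 CPM against 17.8, 18.6 and 21.96 (log2 0.73, SE 0.08, adjusted p = 1.30e-05). Atg9a, the scramblase of the vesicles that seed the membrane, was lower in lymphatic cells (log2 −0.41), in HEV-like cells (log2 −0.48) and in B cell-like against T cell-like cells (log2 −0.53). Its highest class mean was in capillary-like cells, 20.9 ± 4.05 CPM. Wipi1 was also higher in B cell-like than in T cell-like cells (log2 0.68), at means of 1.39 ± 0.438 and 0.861 ± 0.261 CPM. Both are far below the 12.5 to 40.3 CPM it has in the free RNA of the CD45 libraries.

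The Atg4 proteases trim Atg8-family proteins before coupling and release them again, and single members went opposite ways. Atg4a was lower in lymphatic cells, 35.2, 41.05 and 46.4 scaled CPM against 71.2, 81.2 and 96.2, with no overlap (log2 −1.02, SE 0.06, adjusted p = 8.94e-08), and also lower in HEV-like cells, 48.99, 57.3 and 67.4 CPM against 69.1, 80.6 and 90.6 (log2 −0.49, SE 0.05, adjusted p = 3.87e-06). Atg4b, the family's most active protease, passed in no comparison (log2 0.14, −0.01 and 0.15). Atg4c had 7.31, 8.44 and 9.44 CPM in B cell-like and 0.486, 1.14 and 1.52 in T cell-like cells (log2 2.96, SE 0.19, adjusted p = 1.45e-08). The T cell-like values rest on 70 UMIs in all 6 libraries and lie below the 3.65 to 6.72 CPM of Atg4c in free RNA, so a T cell-like level cannot be told from background, while every B cell-like value lies above that range.

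The Atg8 family held the member with the widest difference between HEV-like cells and the rest of the blood endothelium. Map1lc3a, which encodes LC3A, had 31.9, 38.7 and 49.9 scaled CPM in HEV-like cells and 64.9, 94.7 and 118 in the others, so it was lower in each of the 6 libraries and the ranges did not overlap (log2 −1.22, SE 0.10, adjusted p = 1.18e-06). In HEV-like cells it lay below the free RNA of its library in all 6. Gabarap, of the other branch of the family, had 320.3, 363 and 399.6 CPM against 197, 228 and 257 and was higher in each library (log2 0.67, SE 0.05, adjusted p = 7.44e-07). Unscaled, HEV-like cells had 286 to 354 CPM of Gabarap, and free RNA of the CD31 libraries held 282 to 339. Gabarapl1 and Gabarapl2, its paralogs, were higher by less (log2 0.22 and 0.27), and with library totals alone both had values below 0 (log2 −0.08 and −0.03). The Gabarapl2 call was kept in 12 of 13 alternatives and the Gabarapl1 call in 6 of 13: besides the scaling, it was lost with no filter on low counts, with DESeq2, with more doublets removed, with the globin-rich capillary cluster added and without the day 3 Cre-positive or the day 7 Cre-negative library. Map1lc3b, which encodes the LC3B commonly used as an autophagosome marker, did not pass (log2 −0.07). In lymphatic cells Map1lc3a was again lower than in blood endothelial-like cells (log2 −0.57), as was Gabarapl2 (log2 −0.29), whereas Gabarapl1 and Map1lc3b were higher (log2 0.65 and 0.21) and Gabarap did not pass (log2 −0.12). In lymphocytes Gabarap was higher in B cell-like cells, 285, 299 and 338 CPM against 164, 183 and 199 in T cell-like cells (log2 0.76, SE 0.04, adjusted p = 1.33e-09). Free RNA of the CD45 libraries held 263 to 340.2 CPM of Gabarap, a range that covers the B cell-like values, and the T cell-like level was below it in all 6 libraries. Map1lc3a was higher there too (log2 0.97), but its 15.4 ± 2.56 and 7.84 ± 1.47 CPM are both far below the 47.3 to 89.2 CPM of free RNA. Map1lc3b was lower by a small amount (log2 −0.14), a call kept in 7 of 12 alternatives and lost with no filter on low counts, with DESeq2 and without the vehicle Cre-negative or either day 3 library, and Gabarapl1 and Gabarapl2 did not pass (log2 −0.17 and −0.01).

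The cargo receptors differed by class one gene at a time. Bnip3l, the mitophagy receptor also known as NIX, was higher in HEV-like cells, 191, 207 and 246 scaled CPM against 113, 140.1 and 146 in other blood endothelial-like cells, without overlap (log2 0.66, SE 0.06, adjusted p = 1.53e-06). Its paralog Bnip3 did not pass there (log2 0.26) and was lower in lymphatic cells (log2 −0.50). Optn, the ubiquitin-binding receptor optineurin, was higher in HEV-like and in lymphatic cells (log2 0.39 and 0.35), though with library totals alone the first was 0.09 and no longer passed (adjusted p = 0.350). Tax1bp1, a ubiquitin-binding receptor, was higher in lymphatic cells, 241, 289 and 304 CPM against 201, 212 and 219 (log2 0.42, SE 0.06, adjusted p = 0.000115). Calcoco1, a receptor for endoplasmic reticulum and Golgi membrane, was lower in HEV-like cells (log2 −0.44), and Nbr1, a receptor for ubiquitinated aggregates and peroxisomes, passed in none of the 3 (log2 −0.09, 0.02 and 0.15). In lymphocytes Optn had 6.80, 9.08 and 10.1 CPM in B cell-like and 0.793, 1.07 and 1.65 in T cell-like cells (log2 2.92, SE 0.15, adjusted p = 1.43e-09). Free RNA held 4.46 to 11.2 CPM of Optn, a range that covers the B cell-like values and lies above the T cell-like ones, so a T cell-like level cannot be told from background. Tax1bp1 and Bnip3 were also higher in B cell-like cells (log2 0.56 and 1.06) and Bnip3l lower, 60.1, 74.1 and 93.5 CPM against 100.4, 106 and 118 (log2 −0.53, SE 0.06, adjusted p = 4.38e-06).

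Of the 6 fusion genes, 5 were higher in B cell-like than in T cell-like cells, where 35% of all genes tested were higher, and the other, the tether gene Epg5, had a log2 difference of 0.15. Plekhm1, an adaptor that joins Rab7 to the tethering complex, had 48.5, 63.97 and 88.96 scaled CPM in B cell-like and 9.65, 11.5 and 15.1 in T cell-like cells (log2 2.42, SE 0.08, adjusted p = 1.19e-11). Snap29, a SNARE of the autophagosome, had 51.4, 57.8 and 63.2 CPM against 13.5, 15.2 and 19.2 (log2 1.84, SE 0.09, adjusted p = 4.79e-10). The ranges of both genes did not overlap, and in T cell-like cells both lay below the free RNA of their library in all 6. Stx17, the SNARE that marks closed autophagosomes, Rab7, the late endosome GTPase, and Vamp8, the lysosomal SNARE, were higher by log2 0.42, 0.33 and 0.28. Within blood endothelium Vamp8 and Stx17, partners in one SNARE complex, differed in opposite directions. Vamp8 had 115, 153 and 163 CPM in HEV-like cells against 79.7, 93.8 and 102 in the others (log2 0.67, SE 0.05, adjusted p = 6.13e-07), and Stx17 had 15.1, 18.2 and 20.9 CPM against 26.4, 28.7 and 33.1 (log2 −0.68, SE 0.08, adjusted p = 1.10e-05). Both differences held in each of the 6 libraries. Vamp8 lay below the free RNA of its library in all 6, in HEV-like and in blood endothelial-like cells alike. Snap29, the third partner, did not pass (log2 0.00), and Rab7 was higher by log2 0.13 with TMM and lower by log2 −0.17 with library totals alone. The Rab7 call was also lost with no filter on low counts, with DESeq2, with the globin-rich capillary cluster added and without any 1 library other than the day 7 Cre-positive one. In lymphatic cells Snap29 was lower, 16.3, 18.1 and 24.2 CPM against 24.96, 25.7 and 31.4 (log2 −0.51, SE 0.09, adjusted p = 0.000412), and so was Stx17 (log2 −0.29). Vamp8 was higher there by log2 0.16, but its value was −0.03 without lymphatic cluster 13, which is led by Ccl20 and Madcam1, and the call was kept in 3 of 14 alternatives and lost without any 1 library other than the day 3 Cre-negative one. Rab7 had a log2 difference of 0.05 and did not pass.

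**Figure D3:**
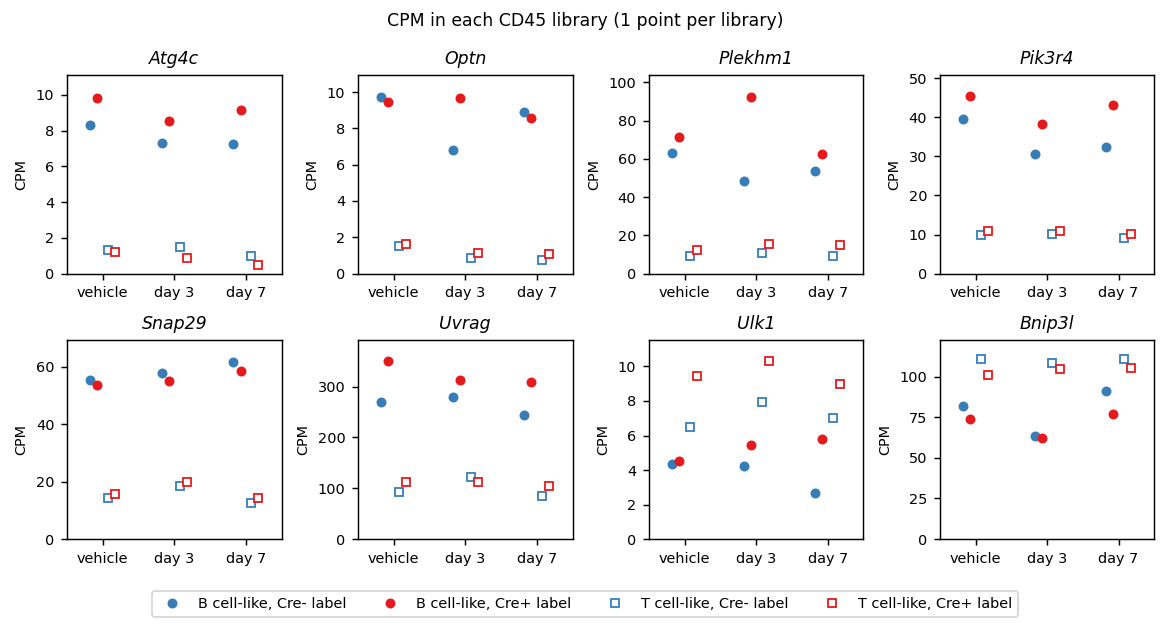
CPM of 8 members in each CD45 library by treatment, 1 point per library, for B cell-like (circles) and T cell-like (squares) cells and both Cre labels. B cell-like points lie above T cell-like points in every library for Atg4c, Optn, Plekhm1, Pik3r4, Snap29 and Uvrag and below them for Ulk1 and Bnip3l.

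For members of at least 20 CPM, the T cell-like and B cell-like cells of the CD31 libraries gave levels close to these from another fraction. The 21 members with at least 20 CPM in T cell-like and the 24 in B cell-like cells were compared, and the mean in the CD31 fraction was 0.839 to 1.09 and 0.874 to 1.20 times that in the CD45 fraction. Members of lower level, Optn, Atg4c, Ulk1 and Wipi1 among them, were left out of this comparison.

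Oxazolone at day 3 was followed by lower Calcoco1 in blood endothelial-like cells, and by no other change among the 38 members that passed over all genes. Calcoco1 (ENSMUSG00000023055) lies at chr15:102706777-102722178 on the minus strand of GRCm38 in the GENCODE M21 annotation. Its level was 18.3 and 15.2 CPM at vehicle, 10.3 and 9.37 at day 3, and 14.2 and 15.1 at day 7. Both day 3 libraries lay below every vehicle and day 7 library, a fall to 0.620 of the vehicle level (log2 −0.69, SE 0.13, adjusted p = 0.0495). The call sits at the threshold. It was lost with DESeq2 (adjusted p = 0.0591), with library totals alone (0.0584), with more doublets removed (0.0616), with the globin-rich capillary cluster added (0.0895), without the HEV-like cells (0.0507) and without either vehicle or either day 3 library (0.0966 to 0.405), while the log2 value stayed between −0.78 and −0.58 over all alternatives tried. In the free RNA of the same libraries Calcoco1 was 10.4 and 11.6 CPM at vehicle, 6.85 and 8.93 at day 3, and 13.4 and 15.6 at day 7, also lowest at day 3, and the class lay above its own library's free RNA in 5 of the 6 libraries. The part of free RNA in the change was not tested. At day 3 the log2 value of Calcoco1 was also below 0 in each of the other tested classes, where it did not pass. Of these, HEV-like cells are part of the blood endothelial-like class. In lymphatic cells Calcoco1 was 21.8 and 15.7 CPM at vehicle and 8.36 and 18.6 at day 3. It was thus lower at day 3 between the Cre-negative libraries and higher between the Cre-positive ones. Against this 1 member (2.63%), edgeR called 4.56% of the 14364 genes tested, 499 higher (3.47%) and 156 lower (1.09%).

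The makeup of the blood endothelial-like class moved with treatment too. Cycling cells were 2.73% and 0.859% of it at vehicle, 11.2% and 11.9% at day 3, and 0.725% and 2.96% at day 7, and HEV-like cells were 11.7% and 12.6%, 19.9% and 16.8%, and 21.01% and 13.4%. The immediate-early cluster was 11.6% and 25.1%, 5.06% and 9.81%, and 18.2% and 9.90%. Erythroid markers summed to 313 and 201 CPM at vehicle, 1.98 and 2.91 at day 3, and 1.86 and 20.001 at day 7. The 10 dissociation and heat shock genes summed to 6057 and 9304 CPM, 4828 and 4946, and 7619 and 4256. Without the cycling and immediate-early clusters the log2 change of Calcoco1 was −0.61 (adjusted p = 0.0647), and without the HEV-like cells it was −0.66. The part of the erythroid and dissociation genes in the result was not tested. Mean Calcoco1 over the libraries was 26.6 CPM in capillary-like cells, 9.04 in HEV-like and 6.72 in cycling cells. The share of capillary-like cells was not compared by treatment, and its part in the Calcoco1 change was not tested.

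Of the 38 members in blood endothelial-like cells at day 3, Calcoco1 included, 28 had a log2 change below 0 (73.7%, against 51.4% of all genes tested), the median was −0.20 against −0.01, and 14 had an unadjusted p under 0.05 (36.8%, against 28.2%). By step, values below 0 numbered 4 of 5 (median −0.37) in the ULK complex, 5 of 6 (median −0.22) among the PI3 kinase genes, 5 of 6 (median −0.18) among the lipid genes, 3 of 4 (median −0.11) among the Atg4 proteases, 2 of 5 (median 0.20) in the Atg8 family, 6 of 6 (median −0.39) among the receptors and 3 of 6 (median −0.09) among the fusion genes. Ulk1 was 18.97 and 18.5 CPM at vehicle, 13.03 and 12.1 at day 3, and 19.2 and 20.3 at day 7, both day 3 values under all others (log2 −0.51, SE 0.11, adjusted p = 0.0626). Its free RNA was 15.6 and 16.9 CPM at vehicle, 10.3 and 10.7 at day 3, and 18.7 and 21.6 at day 7, again lowest at day 3. Rb1cc1 was 135 and 129 CPM at vehicle, 97.8 and 96.03 at day 3, and 113 and 135 at day 7 (log2 −0.37, SE 0.10, adjusted p = 0.086). Atg14, which places the PI3 kinase at the autophagosome, was 21.1 and 17.7 CPM at vehicle, 12.8 and 13.5 at day 3, and 16.3 and 18.2 at day 7 (log2 −0.48, SE 0.13, adjusted p = 0.0923), and Pik3c3 had log2 −0.39 (adjusted p = 0.111). Becn1 had log2 0.07 (adjusted p = 0.632). Among the receptors Bnip3 was 12.6 and 12.7 CPM at vehicle, 8.61 and 8.46 at day 3, and 10.3 and 11.03 at day 7 (log2 −0.50, SE 0.14, adjusted p = 0.0912), and Optn and Nbr1 had log2 −0.48 and −0.31 (adjusted p = 0.144 and 0.095). Tax1bp1 and Bnip3l had log2 −0.09 and −0.16. None of these passed.

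The Atg8 and fusion genes had values on both sides. Snap29 was 25.1 and 24.05 CPM at vehicle, 29.9 and 28.5 at day 3, and 23.2 and 25.7 at day 7, with both day 3 values above all others (log2 0.33, SE 0.10, adjusted p = 0.102). Vamp8 had log2 0.31 and Gabarap 0.28 (adjusted p = 0.117 and 0.167), whereas Map1lc3a had −0.34 (adjusted p = 0.175). Map1lc3b, Gabarapl1 and Gabarapl2 had log2 0.20, −0.24 and 0.24. Epg5, Plekhm1, Stx17 and Rab7 had log2 −0.33, −0.25, −0.19 and 0.00 (adjusted p = 0.143 for Epg5). None of these passed.

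**Figure D4:**
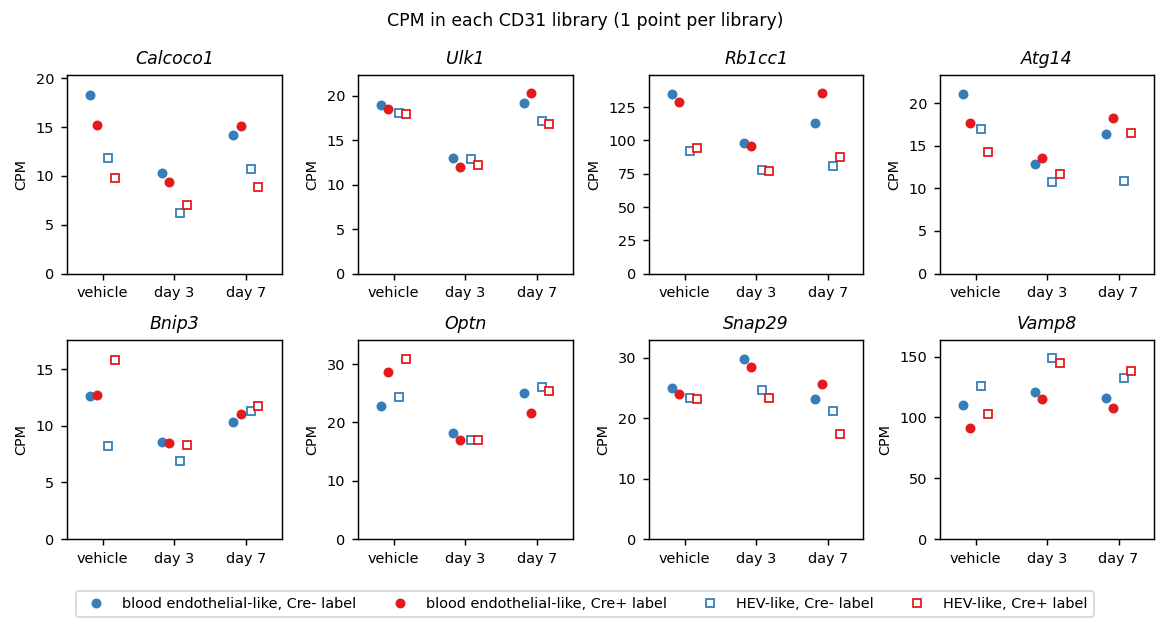
CPM of 8 members in each CD31 library by treatment, 1 point per library, for blood endothelial-like (circles) and HEV-like cells (squares) and both Cre labels. The day 3 points of Calcoco1 in blood endothelial-like cells, 10.3 and 9.37 CPM, lie below the vehicle points, 18.3 and 15.2 CPM, and those of Snap29 lie above them.

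**Figure D5:**
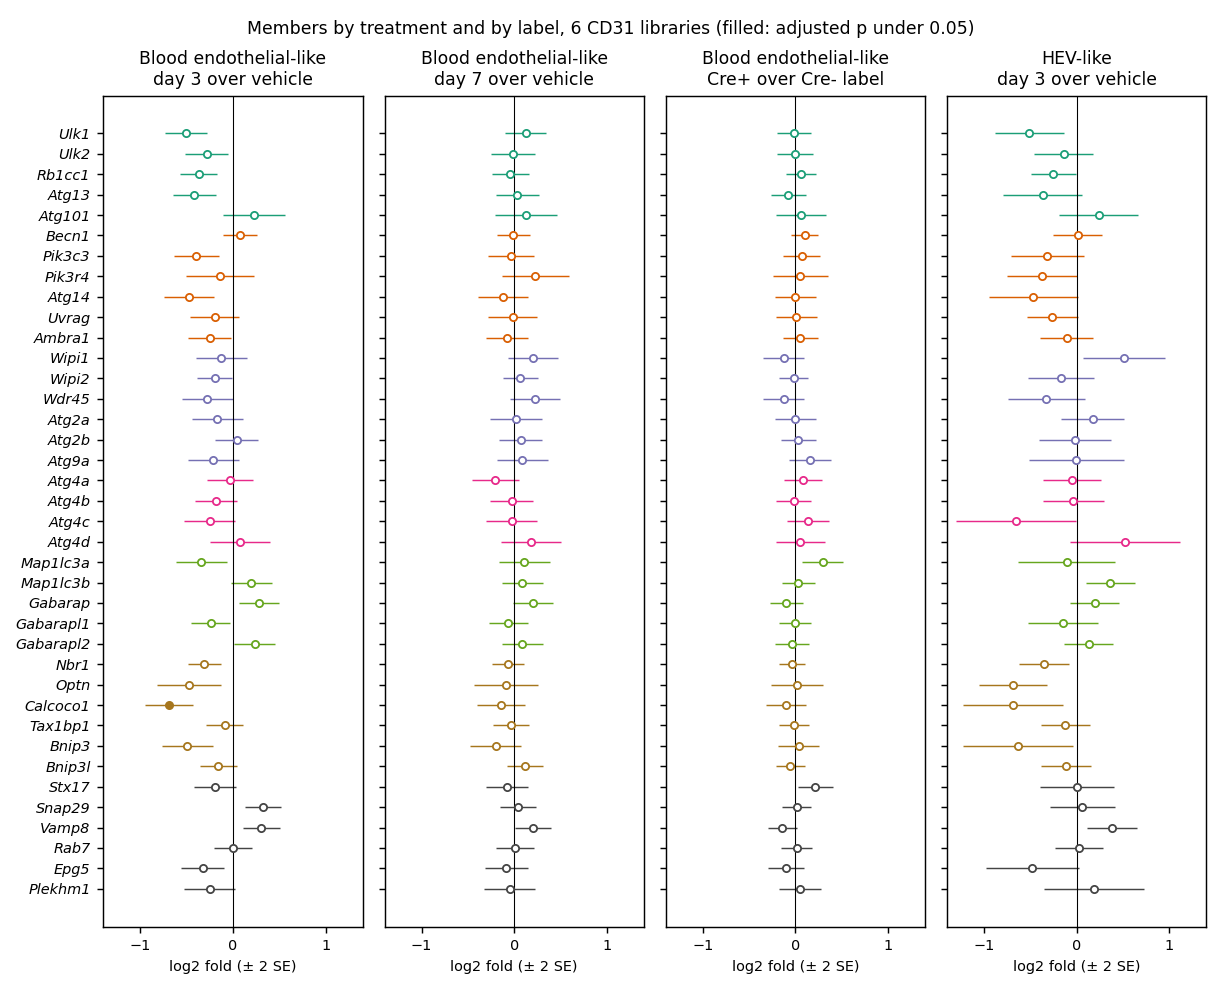
Log2 change (± 2 SE) of each member (rows, coloured by step) at day 3, at day 7 and between Cre labels in blood endothelial-like cells and at day 3 in HEV-like cells (panels), from the additive edgeR model of 6 libraries; filled points have an adjusted p under 0.05. Calcoco1 at day 3 in blood endothelial-like cells is the filled point.

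The windows around the start sites of 3 members with low day 3 values in blood endothelial-like cells are shown because they can be set side by side for motifs. Calcoco1 is the called member, and Atg14 and Bnip3 are the members whose window holds the E-box CACGTG, the core of the site used by the TFEB family of autophagy and lysosome regulators. Sequences are from RefSeq, build GRCm38.p6, 250 bases before to 50 after the start, 5′ to 3′ on the gene's strand (minus for all 3): Calcoco1 chr15:102722129-102722428, Atg14 chr14:47568385-47568684 and Bnip3 chr7:138909457-138909756. In the annotation used for gene positions Atg14 starts at chr14:47570649, so its RefSeq window lies inside that gene. Capitals mark CACGTG and GGGCGG (the GC box) on either strand, so CCGCCC is the GC box read on the other strand. Neighbouring GC boxes can share a base, and the longer motif TCACGTGA contains CACGTG.
Calcoco1: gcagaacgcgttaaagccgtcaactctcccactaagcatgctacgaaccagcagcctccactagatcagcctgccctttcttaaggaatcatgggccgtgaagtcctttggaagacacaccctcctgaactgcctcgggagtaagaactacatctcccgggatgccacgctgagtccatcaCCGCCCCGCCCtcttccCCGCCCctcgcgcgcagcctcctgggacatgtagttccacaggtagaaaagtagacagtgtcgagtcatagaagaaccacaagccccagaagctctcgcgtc
Atg14: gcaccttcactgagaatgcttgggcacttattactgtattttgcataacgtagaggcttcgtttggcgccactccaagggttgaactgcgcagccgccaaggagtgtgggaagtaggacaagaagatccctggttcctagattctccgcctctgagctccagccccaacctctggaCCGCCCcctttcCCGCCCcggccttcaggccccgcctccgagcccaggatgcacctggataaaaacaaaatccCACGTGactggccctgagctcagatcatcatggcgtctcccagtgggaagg
Bnip3: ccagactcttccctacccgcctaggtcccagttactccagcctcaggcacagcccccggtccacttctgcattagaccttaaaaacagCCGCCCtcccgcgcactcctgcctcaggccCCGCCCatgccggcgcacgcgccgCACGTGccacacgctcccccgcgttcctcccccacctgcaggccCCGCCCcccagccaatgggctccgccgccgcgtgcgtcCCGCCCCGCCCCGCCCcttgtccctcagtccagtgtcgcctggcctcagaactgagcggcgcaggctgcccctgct
Windows were found for 32 of the 38 members, 37 windows in all. CACGTG was in 2 of the 37 (5.41%) and in 7.15% of all 32851 windows of this length, and the longer TCACGTGA was in 0 of the 37 and in 0.974% of all. GGGCGG was in 22 of the 37 (59.5%) and in 35.7% of all. A match describes letters only.

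HEV-like cells at day 3 had no member that passed, beside 0.926% of 11559 genes. edgeR gave 7 members an unadjusted p under 0.05 (18.4%, against 23.5% of all genes), DESeq2 called none, and the median was −0.11 with 25 members below 0. Optn had the largest log2 value, 24.4 and 30.9 CPM at vehicle, 16.9 and 17.05 at day 3, and 26.1 and 25.3 at day 7, with both day 3 values below all others (log2 −0.69, SE 0.18, adjusted p = 0.092). It passed without the filter on low counts (adjusted p = 0.018) and when the vehicle Cre-negative, day 7 Cre-negative or day 7 Cre-positive library was left out. Calcoco1 was 11.8 and 9.77 CPM at vehicle, 6.19 and 6.98 at day 3, and 10.7 and 8.84 at day 7 (log2 −0.68, SE 0.27, adjusted p = 0.178). Atg4c and Ulk1 had log2 −0.65 and −0.51, and Wipi1, Vamp8 and Map1lc3b had 0.51, 0.38 and 0.36 (adjusted p = 0.212, 0.150 and 0.154). In the test of whether the day 3 change differed between HEV-like and other blood endothelial-like cells, no member passed (0.307% of all genes did), and 2 members had an unadjusted p under 0.05, beside 11.05% of all genes. The smallest adjusted p was that of Wipi1 (log2 difference of changes 0.82, SE 0.27, adjusted p = 0.288). For Calcoco1 the difference was log2 −0.06, SE 0.29, adjusted p = 0.975.

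In lymphatic, T cell-like and B cell-like cells no member passed at day 3, with background shares of 0%, 0% and 0.206%. Members with an unadjusted edgeR p under 0.05 numbered 0, 2 and 4, beside 5.11%, 6.02% and 9.99% of all genes, and DESeq2 called none. Lymphatic cells gave the widest intervals, with a median SE of 0.24 among members. Their largest values were those of Epg5 (log2 −0.63), Atg2b (log2 0.51) and Calcoco1 (log2 −0.49). In B cell-like cells Calcoco1 was 13.4 and 11.04 CPM at vehicle, 6.59 and 7.92 at day 3, and 8.35 and 10.6 at day 7, both day 3 values being the lowest (log2 −0.77, SE 0.22, adjusted p = 0.312), with 5.27 to 19.4 CPM in free RNA, and without the filter on low counts it passed (adjusted p = 0.0192). Nbr1 and Pik3r4 followed with log2 −0.41 and −0.31. In T cell-like cells Calcoco1 was 12.03 and 9.95 CPM at vehicle, 7.77 and 9.402 at day 3, and 7.95 and 11.5 at day 7 (log2 −0.40, SE 0.22, adjusted p = 0.868), and the largest values, log2 −0.71 for Optn and 0.44 for Map1lc3a, belong to genes below free RNA there. By the edgeR interaction term, no member passed for a day 3 change that differs between lymphatic and blood endothelial-like cells (0.0142% of genes passed) or between B cell-like and T cell-like cells (0% of genes). At an unadjusted p under 0.05 there was 1 of 38 members in the first, beside 8.45% of all genes. In the second there were 7 of 38, a larger share than the 8.49% of all genes. The smallest adjusted p of this edgeR term was 0.444 (Optn) in the first and 0.432 (Map1lc3a) in the second.

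At day 7 no gene and no member passed against vehicle in any of the 5 classes (0% of the genes tested in each). Members with an unadjusted edgeR p under 0.05 numbered 0 in HEV-like, blood endothelial-like, lymphatic and T cell-like cells and 1 in B cell-like cells, beside 3.06%, 2.52%, 0.729%, 3.70% and 4.08% of all genes, and DESeq2 called none. In blood endothelial-like cells the day 7 values of Calcoco1 and Ulk1 were log2 −0.14 and 0.12 from vehicle, and the largest members were Pik3r4 (log2 0.23), Wdr45 (log2 0.22) and Gabarap (log2 0.21). An interval of 2 SE on each side spans −0.40 to 0.12 for Calcoco1. The largest day 7 values in the other classes were −0.49 for Atg4c, −0.40 for Epg5 and 0.37 for Wipi1 in HEV-like cells, and −0.29 for Bnip3, 0.23 for Plekhm1 and −0.23 for Epg5 in lymphatic cells. In B cell-like cells they were −0.41 for Atg4a, −0.35 for Calcoco1 and −0.30 for Atg2b. In T cell-like cells they were −0.78 for Optn, −0.77 for Atg4c and 0.33 for Map1lc3a, all 3 below free RNA. The day 3 and day 7 comparisons share the vehicle libraries.

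All 38 members were tested by treatment and label in each class except T cell-like cells, where Wipi1 was under the count filter and 37 were tested. No member passed between the libraries labelled Cre-positive and Cre-negative in any class. The background shares were 0.026% of genes in HEV-like, 0.00696% in blood endothelial-like, 0.00776% in lymphatic, 0.09% in T cell-like and 0.00859% in B cell-like cells, 3, 1, 1, 11 and 1 genes, all of them higher in the Cre-positive libraries. In the order given, 0, 1, 0, 6 and 4 members had an unadjusted edgeR p under 0.05, beside 4.14%, 2.92%, 2.42%, 16.4% and 14.9% of all genes, and DESeq2 called none. In the endothelial classes, where the Cdh5 promoter is active, the members with the largest values were Bnip3, Epg5 and Stx17 in HEV-like cells (log2 0.36, −0.33 and 0.32), Map1lc3a, Stx17 and Atg9a in blood endothelial-like cells (log2 0.29, 0.22 and 0.16) and Calcoco1, Map1lc3a and Gabarapl1 in lymphatic cells (log2 0.30, 0.26 and 0.24). Map1lc3a in blood endothelial-like cells was 93.4 and 91.01 CPM at vehicle, 58.96 and 80.95 at day 3, and 82.6 and 113 at day 7 (log2 0.29, SE 0.11, unadjusted p = 0.0405, adjusted p = 1.000). In blood endothelial-like cells the members' SE ran from 0.07 to 0.15, and their log2 values from −0.14 to 0.29.

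In T cell-like and B cell-like cells, where the Cdh5 promoter is not known to be active, Gabarapl2 was lower in the Cre-positive library of each of the 3 pairs. In T cell-like cells it was 128 and 103 CPM at vehicle, 138 and 114 at day 3, and 122 and 113 at day 7 (log2 −0.30, SE 0.08, adjusted p = 0.175), and in B cell-like cells 124 and 113 CPM at vehicle, 133 and 114 at day 3, and 128 and 107 at day 7 (log2 −0.29, SE 0.09, adjusted p = 0.260). Plekhm1 was higher in all 3 pairs of both, log2 0.46 and 0.37 (adjusted p = 0.188 and 0.307). None of these passed. Atg4c and Atg13 had log2 −0.64 and 0.37 in T cell-like cells, and Wipi1 and Ulk1 had 0.49 and 0.41 in B cell-like cells. Depth moved with the label: the median UMIs per T cell-like cell were 4709 and 6092 at vehicle, 4569 and 6726 at day 3, and 4164 and 5358 at day 7, and per B cell-like cell 3042 and 3609, 3132.5 and 4277, and 2504 and 3405.5. The part of depth in these values was not tested.

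Genes around the pathway were taken from 4 lists: upstream regulators (25 genes of the mTOR, AMPK, TSC, sestrin, FOXO and TFEB group), 30 further autophagy genes outside the conjugation machinery, 10 dissociation and heat shock genes and 10 hypoxia targets. In blood endothelial-like cells at day 3, the numbers higher and lower were 0 and 0 of 24 upstream regulators (median −0.16), 0 and 2 of 30 further autophagy genes (median −0.05), 0 and 0 of 10 dissociation and heat shock genes (median −0.67) and 2 and 0 of 9 hypoxia targets (median 0.09), beside 3.47% and 1.09% of all genes. The 2 that fell were Pink1, the kinase that marks damaged mitochondria, and Tecpr1, a tether of autophagosome and lysosome. The 2 that rose were Ldha and Pgk1, glycolytic enzymes that are also hypoxia targets. In HEV-like cells at day 3 they were 0 and 0 of 23 upstream regulators (median −0.17), 0 and 0 of 30 further autophagy genes (median −0.12), 0 and 2 of 10 dissociation and heat shock genes (median −0.58) and 1 and 0 of 9 hypoxia targets (median 0.07), beside 0.554% and 0.372% of all genes, the calls being the immediate-early genes Fosb and Egr1 and again Pgk1. No listed gene passed at day 3 in the other 3 classes, at day 7 or between labels.

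Between classes the regulators and the further autophagy genes had calls on both sides, as the members did. Of all genes tested, 31.4% were higher and 29.3% lower in HEV-like cells, 28.5% and 30.3% in lymphatic cells and 35% and 35.9% in B cell-like cells. In HEV-like against other blood endothelial-like cells the numbers higher and lower were 5 and 5 of 23 upstream regulators (median −0.04), 5 and 8 of 30 further autophagy genes (median −0.05), 7 and 0 of 10 dissociation and heat shock genes (median 0.71) and 6 and 1 of 9 hypoxia targets (median 0.55). In lymphatic against blood endothelial-like cells they were 12 and 4 of 25 upstream regulators (median 0.24), 10 and 4 of 30 further autophagy genes (median 0.10), 2 and 1 of 10 dissociation and heat shock genes (median −0.03) and 3 and 6 of 9 hypoxia targets (median −0.30). In B cell-like against T cell-like cells they were 10 and 6 of 24 upstream regulators (median 0.11), 13 and 7 of 29 further autophagy genes (median 0.06), 9 and 0 of 10 dissociation and heat shock genes (median 0.73) and 2 and 6 of 9 hypoxia targets (median −1.04). The dissociation genes, higher in HEV-like and in B cell-like cells (7 of 10 and 9 of 10), moved with those classes beside the members, and their part in the members' differences was not tested.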

How the data were processed

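The authors deposited raw UMI counts per gene and barcode for 12 libraries, each listing every barcode. Per the submitters' processing notes they were made with Cell Ranger 7.0.1 on build mm10, while the matrix header names version 4. No ambient correction, cell calling or annotation is recorded there.

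Cells were barcodes with at least 1000 UMIs, at least 500 genes and no more than 10% of UMIs from mitochondrial genes, and those with the highest Scrublet scores (0.8% per 1000 barcodes) were removed as doublets, since Scrublet's own threshold marked only 0 to 228 barcodes per library. The barcodes so removed were shallower at the median than those kept in 2 of the CD31 libraries, and doublets may remain there. Each fraction was clustered (scanpy 1.11.5, 2000 variable genes without the members, 30 components, Leiden resolution 1), and clusters were named from marker lists. Counts were summed per class and library. Label and treatment were tested with edgeR 4.0.16 quasi-likelihood tests (R 4.3.3, TMM, filterByExpr) in an additive model of 6 libraries with 2 residual degrees of freedom, and classes with the library as a block. p-values were adjusted by Benjamini-Hochberg over all genes and called under 0.05. DESeq2 1.42.0 was an alternative. The additive edgeR fits of HEV-like, blood endothelial-like and B cell-like cells were run on simulated counts of a fixed dispersion. The fits between classes and the interaction fits were not simulated.

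The members and lists were chosen with earlier results of these data known. The text names at least 1 member of each step in full, every member called by label or treatment and the 3 with the largest change in each contrast. Alternatives were RLE scaling, no filter on low counts, DESeq2, cells of at least 2000 UMIs, 2 times the doublets removed and each library left out. Library totals without TMM, other cluster sets and the interaction tests were added after the data were seen. UMI totals limit the precision of each level but do not alone set the SEs, which cover the spread between libraries only.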

Additional observations from a re-analysis of the deposited data

Results flagged for a closer look

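A feature named mRFP was listed in 4 of the 6 CD31 libraries, outside every comparison above. The feature list thus differed in part with the label. mRFP was in that of every Cre-positive CD31 library and, among the Cre-negative ones, of day 7 alone. In blood endothelial-like cells it had 229 UMIs at vehicle, 569 at day 3 and 184 at day 7 in the 3 libraries labelled Cre-positive, which is 13.02, 21.5 and 12.2 CPM, with a UMI in 6.25%, 11.5% and 6.45% of cells. Lymphatic cells of these libraries had 53, 74 and 75 UMIs, which is 9.65, 17.4 and 9.31 CPM, in 6.28%, 13.8% and 6.94% of cells. The fourth library that lists it, day 7 Cre-negative, had 0 UMIs in 3722 blood endothelial-like cells. T cell-like cells of the Cre-positive libraries had 0, 2 and 0 UMIs and B cell-like cells 0, 1 and 0. What the feature stands for is not given in the sources used here, and no autophagy gene was compared by it.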

How the results depend on the processing

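Of 216 alternative counts of members called, 200 stayed within 1.5 times the value given above. Most of the 216 belong to label or treatment counts of 0, for which this only means that 0 stayed 0. For day 3 in blood endothelial-like cells the count of 1 became 0 with DESeq2, with 2 times the doublets removed, with cluster 1 added, without HEV-like cells, without clusters 7 and 15 and with library totals without TMM, and it ranged from 0 to 2 with 1 library left out: it was 0 without the vehicle Cre-positive, the day 3 Cre-negative or the day 3 Cre-positive library, 2 (Ulk1 and Calcoco1) without either day 7 library, and Optn in place of Calcoco1 without the vehicle Cre-negative library. For day 3 in HEV-like cells the count of 0 became 1 (Optn) with no filter on low counts and ranged from 0 to 1 with 1 library left out. For day 3 in B cell-like cells it became 1 (Calcoco1) with no filter. With 1 library left out, the class counts ranged from 15 to 20 for HEV-like, 18 to 22 for lymphatic and 22 to 26 for B cell-like cells, and the other 13 counts from 0 to 0. Leaving out 1 library or pair turned the sign of 7 log2 values that had not passed, which then ranged, in lymphatic cells, from −0.062 to 0.68 for Calcoco1 by label, −1.22 to 0.093 for Calcoco1 and −1.20 to 0.0088 for Epg5 at day 3, and −0.79 to 0.44 for Epg5 and −0.53 to 0.015 for Bnip3 at day 7. For Atg4c in HEV-like cells at day 7 the range was −0.98 to 0.027 and for Map1lc3a in T cell-like cells at day 7 −0.0051 to 0.71. With library totals in place of TMM, HEV-like values turned for Pik3r4 (−0.072), Gabarapl1 (−0.083), Gabarapl2 (−0.026) and Rab7 (−0.17), by the size of the shift of all genes, and without lymphatic cluster 13 Vamp8 was −0.026. Apart from that scaling and cluster, the cause of these shifts was not tested. The labels give no replicate numbers to pair by; labels were compared within treatment and classes within library in the tests themselves. Depth limits the members with few UMIs, such as Atg4c and Optn in T cell-like cells.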

Other observations

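Over all 25 classes, 7 of the 38 members had their highest class mean in capillary-like cells, among them Rb1cc1 (196 ± 31.9 CPM, SD over 6 libraries), Pik3c3 (39.6 ± 6.34 CPM) and Nbr1 (84.5 ± 8.49 CPM). 5 had it in lymphatic cells and 6 in the macrophage-like cells of the CD31 libraries (means over 4 libraries), Vamp8 and Rab7 among these. The lowest class mean fell on plasma cell-like cells for 15 members, while Map1lc3b had its highest mean there (305 ± 24.3 CPM), both from the 3 libraries with at least 20 such cells. Capillary-like cells had a median of 1842 to 2968 UMIs, under those of the other blood endothelial-like clusters, and plasma cell-like cells numbered 3 to 151 in a library. These counts of members have no share over all genes beside them and are descriptions only. No test was made of the capillary-like, macrophage-like or plasma cell-like classes. Each level is a share of all UMIs of a class, so a few abundant transcripts can move it.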
